A study of Mus musculus with 38 samples.

Results

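Transcripts of 34 antioxidant genes were followed in brain and liver of mice given haloperidol or placebo: peroxiredoxins, superoxide dismutases and catalase, the thioredoxin system, glutaredoxins, the glutathione system, and the transcription factor NRF2 with its repressor and targets. A member was taken from a probe annotated with its symbol and no other, and where several probes qualified, from the probe with the highest mean over all arrays. That gave values for 32 members among 18820 genes measured in all. Prdx5 and Prdx6 had no such probe and are not analysed here. The groups were brains of 10 mice given haloperidol and of 10 given placebo, and livers of 9 mice given haloperidol and of 9 given placebo. All mice were of the inbred strain C57BL/6J, and the haloperidol groups had carried slow-release pellets for 30 days. All arrays, placebo included, are of day 30. Haloperidol is an antipsychotic drug whose main known action is to block dopamine receptors. The labels used here state neither sex nor age, and whole brain mixes all regions and cell types. Each array is named by a tag of a digit and a letter from its title, whose meaning the labels leave unstated.

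Peroxiredoxins and glutathione peroxidases reduce peroxides, and are themselves returned to the reduced state by thioredoxin, by glutathione and by the reductases that draw on NADPH. Superoxide dismutases turn superoxide into hydrogen peroxide, which catalase breaks down. NRF2, encoded by Nfe2l2, is held down by KEAP1, which directs its degradation. When freed, it pairs with small MAF proteins on antioxidant response elements and drives genes such as Nqo1, Hmox1, Gclc, Gclm, Srxn1 and Txnrd1. In brain, astrocytes are known for high activity of this pathway, and liver is rich in catalase and glutathione.

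The core of the antioxidant response element is written TGACNNNGC. It was searched on both strands of RefSeq promoter windows of 300 bases, 250 before and 50 after each annotated start, in the mouse build GRCm38.p6. Of the 34 members, 28 had a window, with 37 windows in all because some genes have several annotated starts. The other 6 (Gclc, Gsr, Hmox1, Msra, Prdx6 and Sod3) had no window and were not searched. Bases beyond the windows were not searched either. The core was found in 7 of these genes, which is 25.0% against 13.99% of all 27025 genes with a window. Nqo1 had a window without a match. The 7 stretches are shown because they name the members whose searched window carries those letters. Each is read 5′ to 3′ on the strand that carries the core, which is in capitals.
Prdx1: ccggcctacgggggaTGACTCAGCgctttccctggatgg
Nfe2l2: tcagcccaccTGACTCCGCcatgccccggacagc
Gclm: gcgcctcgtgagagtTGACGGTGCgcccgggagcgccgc
Srxn1: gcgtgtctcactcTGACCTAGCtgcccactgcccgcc
Txnrd1: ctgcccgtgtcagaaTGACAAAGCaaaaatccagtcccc
Sod1: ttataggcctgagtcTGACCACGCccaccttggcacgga
Msrb2: caTGACGCTGCcaccaacgggtttcc
The Prdx1 stretch lies at chr4:116685451-116685489 on the reverse strand, with the core centred 129 bases before the start. In Nfe2l2, on the reverse strand at chr2:75704880-75704913, the core is 236 bases before the start. For Gclm, at chr3:122245408-122245446 on the reverse strand, the distance is 130 bases before it. In Srxn1, at chr2:152105537-152105573 on the reverse strand, the core falls 32 bases after the start. The Txnrd1 stretch is at chr10:82859099-82859137 on the reverse strand, 88 bases before an annotated start inside the gene. The Sod1 stretch is at chr16:90220691-90220729 on the reverse strand, 52 bases before the start. The Msrb2 stretch is at chr2:19371660-19371685 on the reverse strand, 43 bases after the start. For Txnrd1, Gclm and Msrb2 the start measured from lies inside the gene, downstream of its first annotated base. Only Prdx1 and Msrb2 of these 7 genes are among the 11 members that passed the test in brain. A match is a description of letters and not of a bound site.

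The whole windows of Prdx1 and Gpx1 are given to set a member that carries the core beside the member with the largest brain change, whose window holds no match. The capitals in Prdx1 mark the core as it reads on the gene's strand.
Prdx1: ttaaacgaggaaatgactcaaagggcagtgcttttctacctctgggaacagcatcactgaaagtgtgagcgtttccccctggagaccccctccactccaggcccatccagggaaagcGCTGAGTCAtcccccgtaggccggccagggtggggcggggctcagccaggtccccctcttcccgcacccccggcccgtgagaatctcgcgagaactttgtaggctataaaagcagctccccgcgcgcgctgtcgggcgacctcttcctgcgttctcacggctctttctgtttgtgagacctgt
Gpx1: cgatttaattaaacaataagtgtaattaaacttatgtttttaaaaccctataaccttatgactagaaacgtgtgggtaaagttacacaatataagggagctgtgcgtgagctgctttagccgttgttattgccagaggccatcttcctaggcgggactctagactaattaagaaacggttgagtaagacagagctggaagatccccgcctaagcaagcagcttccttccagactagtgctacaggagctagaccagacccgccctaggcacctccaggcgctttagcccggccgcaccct
The Prdx1 window spans chr4:116685349-116685648 on the forward strand, and the Gpx1 window spans chr9:108338830-108339129 on the forward strand.

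Expression values are on the log2 scale of the authors' normalization, and each change is haloperidol minus placebo on that scale. Tissue markers matched the labels, except that haloperidol brain 4T carried hepatocyte transcripts. There the albumin transcript Alb reached 11.11, against medians of 4.24 in haloperidol brains and 4.22 in placebo brains. The mean of the 8 hepatocyte transcripts listed was 8.38 in 4T, against medians of 4.95 in haloperidol brains and 4.88 in placebo brains. The growth hormone transcript Gh was more than 2 log2 units above its brain median on 5 brain arrays (haloperidol 1R, 2N and 3B, placebo 1L and 2R). These are called arrays with pituitary transcripts here, and were picked by Gh alone. The median of all probes on an array was 6.19 ± 0.072 in haloperidol brains and 6.33 ± 0.044 in placebo brains (SD, n = 10 each), and 4.89 ± 0.09 in haloperidol livers and 4.80 ± 0.082 in placebo livers (SD, n = 9 each). Of 10 red cell transcripts listed, 2 had a probe, and their mean ran from 6.35 to 7.37 in haloperidol brains and from 5.57 to 6.31 in placebo brains. All 12 listed transcripts of microglia or Kupffer cells, called the microglial list here, had a probe. Their mean ran from 7.08 to 7.57 in haloperidol brains and from 6.77 to 7.21 in placebo brains. The 4 oligodendrocyte transcripts averaged 8.81 to 9.78 in haloperidol brains and 8.56 to 9.44 in placebo brains. In bulk tissue, fewer cells of a type and less RNA per cell cannot be told apart.

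Several members were higher in haloperidol brains than in placebo brains. Among them were the peroxidases Gpx1 and Gpx4, the peroxiredoxins Prdx1, Prdx2 and Prdx3 and the quinone reductase Nqo1. The superoxide dismutases, the enzymes of glutathione synthesis and most NRF2 targets among the members did not pass the test, and neither did most genes tested. Of 31 members tested, 11 were higher and 0 lower at an adjusted p under 0.05 by limma, adjusted by Benjamini and Hochberg's method across all 12547 genes tested in brain. That is 35.5% of the members, against 15.2% of all genes called higher and 15.2% called lower, or 30.4% in either direction. At an unadjusted p under 0.05 there were 14 members of the 31, while the share of all genes was 44%. The 11 changes ranged from 1.18-fold to 1.82-fold. The median change over the 31 members was 0.12, against -0.02 over all genes tested. By group, 3 of 4 peroxiredoxins rose, 3 of 8 genes of the glutathione system, 2 of 4 glutaredoxins, 1 of 6 genes of the thioredoxin system, 1 of 4 superoxide dismutases and catalase, and 1 of 5 NRF2 regulators and targets. Haloperidol and placebo arrays overlapped for all 31 members, as they did for most genes, since only 0.104% of those tested had groups that did not overlap.

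**Figure D1:**
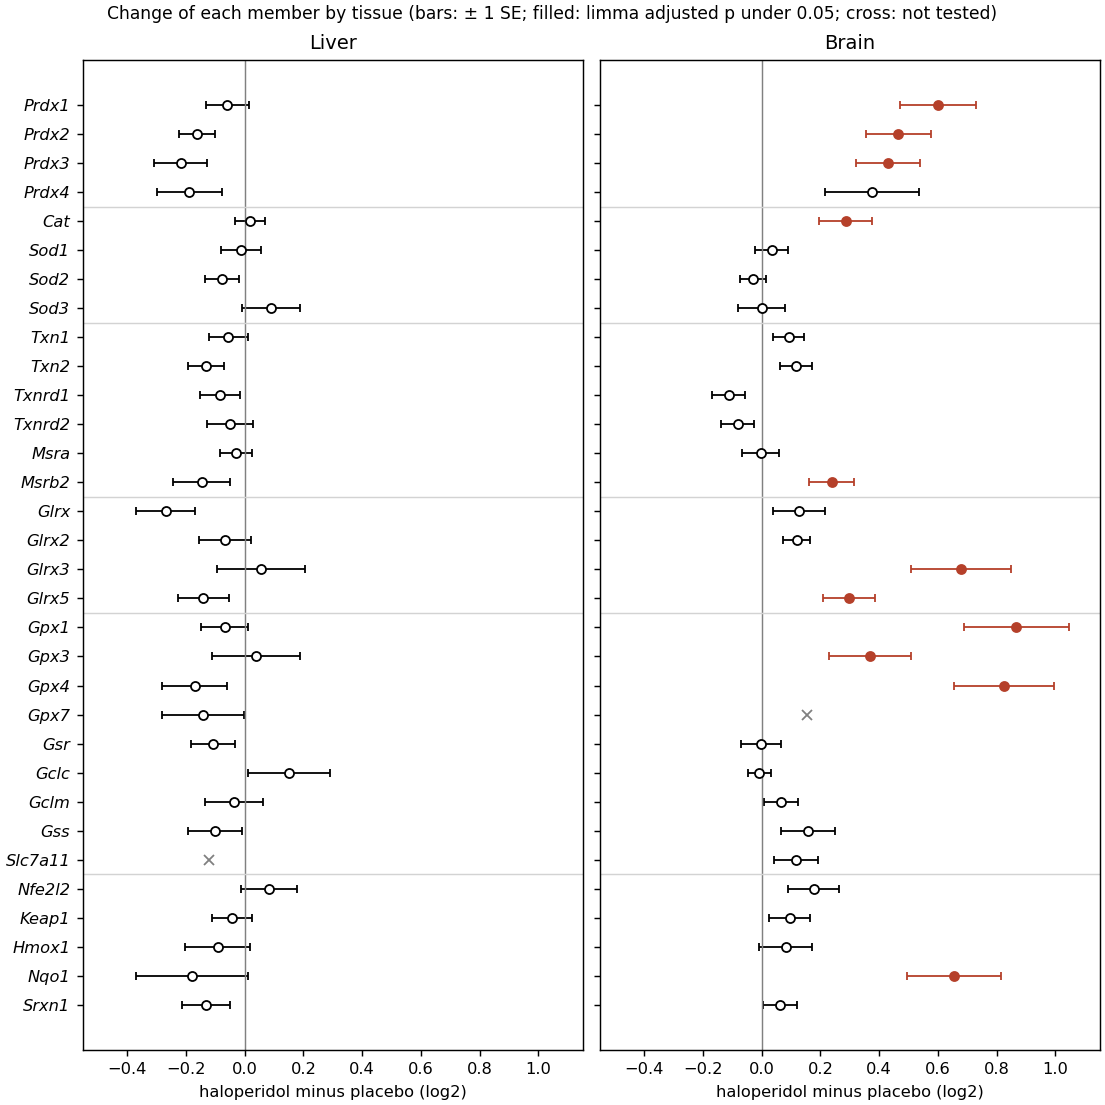
Change of each member in liver (left) and brain (right), haloperidol minus placebo on the log2 axis, grouped by role from peroxiredoxins at the top to NRF2 genes at the bottom. Bars are 1 SE, filled points passed limma's adjusted threshold of 0.05, and crosses mark Slc7a11 in liver and Gpx7 in brain, which were too dim to test. The 11 filled points are all in brain and all to the right of 0, and no liver member is filled.

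Among glutathione peroxidases, Gpx1, the cytosolic selenoenzyme that reduces hydrogen peroxide, ran from 9.45 to 11.05 with a median of 10.43 in haloperidol brains, against 9.04 to 9.93 with a median of 9.39 in placebo brains. 7 haloperidol arrays lay above the highest placebo array, and the rest fell within the placebo range. The change was 0.87 (SE 0.18, limma adjusted p = 0.00444), or 1.82-fold, the largest of any member. Gpx4, which reduces lipid peroxides in membranes and is known for guarding cells against ferroptosis, ran from 10.38 to 11.78 with a median of 11.37 in haloperidol brains, against 10.04 to 10.85 with a median of 10.30 in placebo brains. All 10 haloperidol arrays were above the placebo mean, and 6 were above the highest placebo array. The change was 0.82 (SE 0.17, adjusted p = 0.00428). Gpx3, the peroxidase secreted into plasma, ran from 6.63 to 7.78 with a median of 7.12 in haloperidol brains, against 6.13 to 7.22 with a median of 6.72 in placebo brains. The groups overlapped over most of their range, and its change of 0.37 (SE 0.14, adjusted p = 0.0498) was the closest to the threshold. Leaving out 1 array ended this call in 12 of 20 fits (haloperidol 1B, 2T, 3B, 3R, 4N or 4T, or placebo 1L, 1N, 2B, 3N, 3T or 4R), with adjusted p of up to 0.101. Gpx7, an endoplasmic reticulum peroxidase, was below the limit of 5.52 for testing in brain, with medians of 5.35 in haloperidol brains and 5.21 in placebo brains.

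The enzymes that make and recycle glutathione did not pass in brain. Gclc, the catalytic subunit of the rate-limiting ligase of glutathione synthesis, had the narrowest spread of these, from 9.81 to 9.96 in haloperidol brains and from 9.78 to 9.94 in placebo brains, with a change of -0.01 (SE 0.039). Its modifier subunit Gclm had a change of 0.06 (SE 0.058, limma adjusted p = 0.40). Gss, which completes the tripeptide, had a change of 0.16 (SE 0.092), and Gsr, the reductase that regenerates glutathione, had a change of 0.00 (SE 0.068). Slc7a11, the cystine importer that feeds the pathway, was tested in brain alone and had a change of 0.12 (SE 0.074, adjusted p = 0.221).

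Among peroxiredoxins, Prdx1, a cytosolic form and a classical NRF2 target, ran from 10.05 to 11.14 with a median of 10.81 in haloperidol brains, against 9.88 to 10.47 with a median of 10.10 in placebo brains. 7 haloperidol arrays exceeded every placebo array. The change was 0.60 (SE 0.13, adjusted p = 0.00463), or 1.52-fold. Prdx2, the cytosolic form known for its abundance in neurons and red cells, ran from 11.37 to 12.32 with a median of 11.93 in haloperidol brains, against 11.22 to 11.67 with a median of 11.40 in placebo brains. Again 7 haloperidol arrays lay above all placebo arrays. Its change was 0.47 (SE 0.11, limma adjusted p = 0.00643). Prdx3, the mitochondrial form, ran from 9.14 to 10.15 with a median of 9.64 in haloperidol brains, against 8.96 to 9.37 with a median of 9.24 in placebo brains. Here 8 haloperidol arrays exceeded the highest placebo array, and the change was 0.43 (SE 0.11, adjusted p = 0.00908). Prdx4, the form of the endoplasmic reticulum, spread more widely, from 6.31 to 7.93 with a median of 7.17 in haloperidol brains, against 6.42 to 7.13 with a median of 6.80 in placebo brains. The lowest of all its brain arrays was a haloperidol array, and its change of 0.37 (SE 0.16, adjusted p = 0.0828) did not pass. It did pass without haloperidol 1R or 4L, with an adjusted p down to 0.0167.

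Of the glutaredoxins, Glrx3, a cytosolic protein of iron-sulfur cluster handling, ran from 7.43 to 9.06 with a median of 8.33 in haloperidol brains, against 7.29 to 7.99 with a median of 7.61 in placebo brains. The haloperidol arrays were spread over a wider range, with 7 above all placebo arrays. The change was 0.68 (SE 0.17, limma adjusted p = 0.00735), or 1.60-fold. Glrx5, which acts in mitochondrial iron-sulfur cluster assembly, ran from 9.23 to 9.95 with a median of 9.67 in haloperidol brains, against 9.01 to 9.61 with a median of 9.37 in placebo brains. 7 haloperidol arrays lay above the highest placebo array, and the change was 0.30 (SE 0.089, adjusted p = 0.0163). The mitochondrial Glrx2 had a change of 0.12 (SE 0.047, adjusted p = 0.0558) and passed without haloperidol 1R, 2L or 4L or placebo 3N or 4R, with an adjusted p down to 0.0343. The cytosolic Glrx, which removes glutathione from proteins, had a change of 0.13 (SE 0.088, adjusted p = 0.271).

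In the thioredoxin system, the mitochondrial methionine sulfoxide reductase Msrb2 was the member that passed, from 7.86 to 8.53 with a median of 8.18 in haloperidol brains, against 7.76 to 8.18 with a median of 7.95 in placebo brains. The groups overlapped, with 5 haloperidol arrays above all placebo arrays. Its change was 0.24 (SE 0.078, limma adjusted p = 0.0256). Without haloperidol 3B or 4N the Msrb2 call ended, with an adjusted p of up to 0.0545. Txn2, the mitochondrial thioredoxin, ran from 9.97 to 10.33 with a median of 10.05 in haloperidol brains, against 9.68 to 10.07 with a median of 9.98 in placebo brains. All 10 haloperidol arrays were above the placebo mean, yet the change of 0.12 (SE 0.055, adjusted p = 0.101) did not pass. Txn1, the cytosolic thioredoxin, had a change of 0.09 (SE 0.053). The thioredoxin reductases had negative changes, -0.11 (SE 0.055, adjusted p = 0.12) for the cytosolic Txnrd1 and -0.08 (SE 0.056) for the mitochondrial Txnrd2, and Msra, the other methionine sulfoxide reductase, had 0.00 (SE 0.063). For Txnrd1, 6 haloperidol arrays lay below the lowest placebo array while haloperidol 4T, the array with albumin transcript, was the highest of all brain arrays at 8.51. Without 4T Txnrd1 passed as lower, with a change of -0.14 (adjusted p = 0.0303).

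Catalase and the superoxide dismutases differed from each other. Cat, which breaks down hydrogen peroxide in peroxisomes, ran from 9.33 to 10.02 with a median of 9.69 in haloperidol brains, against 8.89 to 9.59 with a median of 9.46 in placebo brains. 7 haloperidol arrays exceeded every placebo array, and the change was 0.29 (SE 0.09, limma adjusted p = 0.0214). Sod2, the mitochondrial dismutase, stayed within a narrow range of 10.99 to 11.25 with a median of 11.12 in haloperidol brains, against 10.99 to 11.20 with a median of 11.14 in placebo brains. Its groups shared nearly the whole range, and the change of -0.03 (SE 0.045, adjusted p = 0.638) did not pass. The cytosolic Sod1 had a change of 0.03 (SE 0.057), and the extracellular Sod3 a change of 0.00 (SE 0.08).

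In the NRF2 group, Nqo1, a quinone reductase and the classical NRF2 reporter gene, ran from 6.14 to 7.51 with a median of 6.75 in haloperidol brains, against 5.39 to 6.51 with a median of 6.24 in placebo brains. 8 haloperidol arrays lay above all placebo arrays, and placebo 1L was the lowest of all brain arrays. The change was 0.65 (SE 0.16, limma adjusted p = 0.00706), or 1.57-fold. Nfe2l2, the NRF2 gene itself, ran from 8.10 to 8.80 with a median of 8.47 in haloperidol brains, against 7.92 to 8.55 with a median of 8.33 in placebo brains. Its ranges overlapped broadly, and the change of 0.18 (SE 0.087, adjusted p = 0.118) did not pass, though it did without haloperidol 4L (adjusted p = 0.0376). Keap1, the repressor, had a change of 0.10 (SE 0.069), Hmox1, the inducible haem oxygenase, 0.08 (SE 0.09), and Srxn1, which restores overoxidised peroxiredoxins, 0.06 (SE 0.057). Of the 9 members that are classical NRF2 targets (Prdx1, Txnrd1, Gsr, Gclc, Gclm, Slc7a11, Hmox1, Nqo1 and Srxn1), Prdx1 and Nqo1 passed, and the median change of the 9 was 0.06. Of the 7 mitochondrial members tested, 3 passed (Prdx3, Glrx5 and Msrb2), with a median of 0.12. Both counts are to be read against 15.2% of all genes tested called higher.

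**Figure D2:**
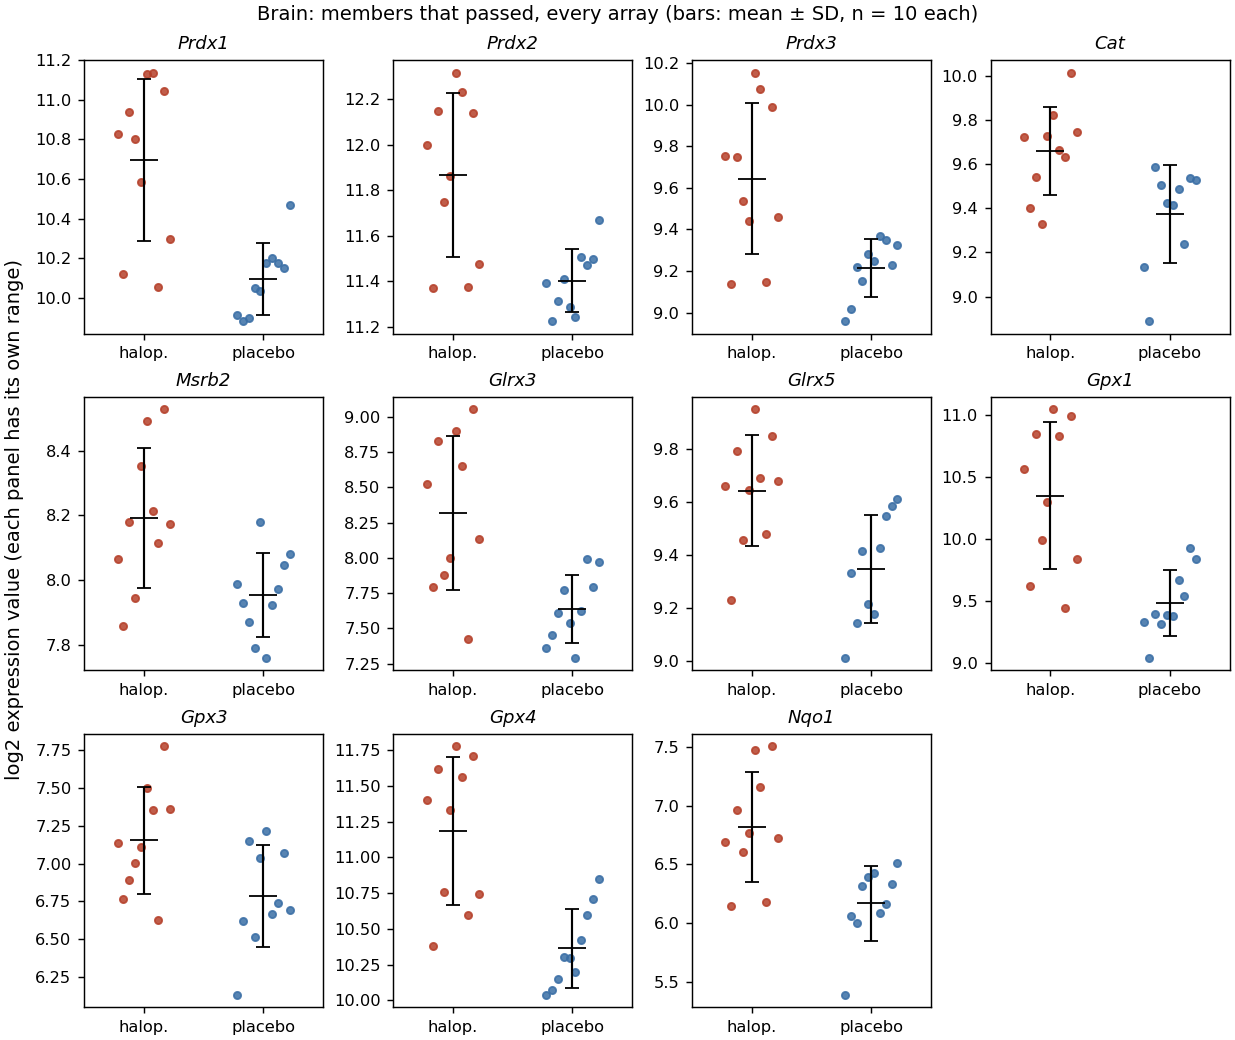
Log2 expression values of the 11 members that passed in brain, 1 point for each array, haloperidol left of placebo, with bars for the mean and SD (n = 10 each). Each panel has its own range. The points overlap between groups in all 11 panels, and the haloperidol points are more widely spread in 10 of them.

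The members that passed shared their high arrays. Haloperidol 3B, 4N and 3R were above the highest placebo array for 11 of the 11 members, 2T for 10, 1B for 9, 2L for 8, 4T for 6 and 2N for 5. Haloperidol 4L was above it for 1 member and 1R for 0. The median difference of an array from the placebo mean over the 11 members was 0.95 in 4N, 0.94 in 3B and 0.86 in 3R, against -0.03 in 4L and -0.02 in 1R. Thus, over these 11 members, the haloperidol brains formed a range from arrays at the placebo level to arrays nearly 1 log2 unit above it. The 11 were picked for being higher with haloperidol, so haloperidol arrays above the placebo arrays follow from that choice. Among haloperidol brains, the means of the microglial and oligodendrocyte lists were also highest in 4N and lowest in 1R, while the endothelial mean was lowest in 4N. A link between these was not tested. The SD was larger in haloperidol brains for 10 of the 11 members, with Cat the exception, and ran from 0.20 to 0.59 in haloperidol brains and from 0.13 to 0.34 in placebo brains. Array 3B is among those with pituitary transcripts, as is 1R. Without the 5 such arrays 10 members passed, and Gpx3 did not (adjusted p = 0.0829). When 4N and 4T of the haloperidol brains and 1L of the placebo brains were left out, 7 members were higher and 1 was lower, and Cat, Glrx5, Gpx3 and Msrb2 no longer passed.

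**Figure D3:**
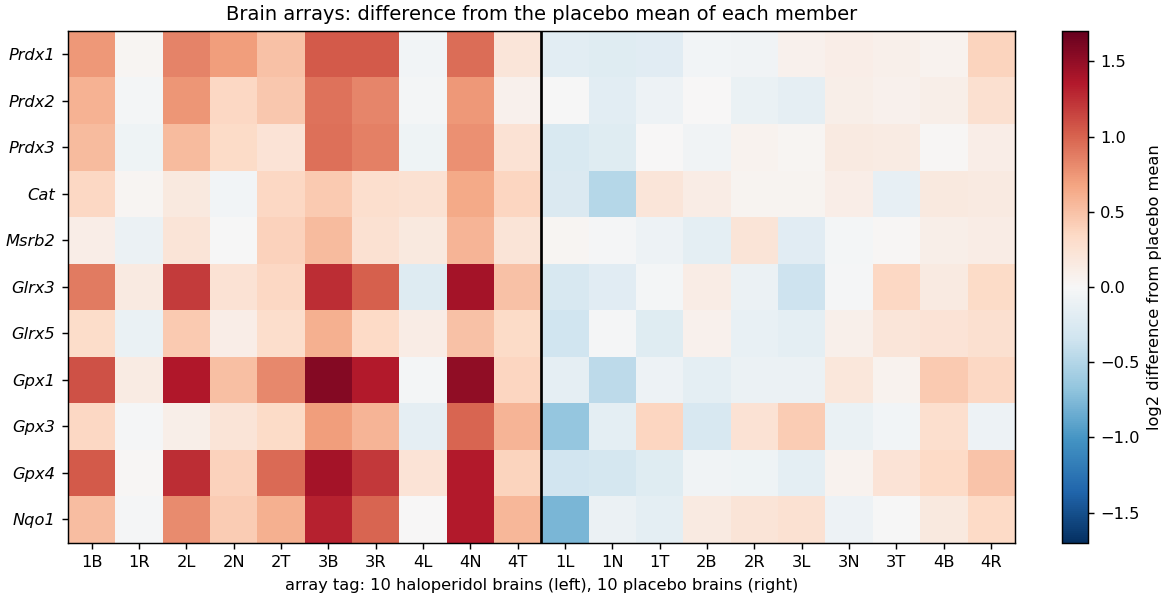
Difference of each brain array from the placebo mean of the gene (colour, log2 units, red above and blue below) for the 11 members that passed, with the 10 haloperidol arrays left of the black line and the 10 placebo arrays right of it. Columns 3B, 3R and 4N are red for all 11 members, while 1R and 4L are close to white.

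The brain calls depended on how array-wide differences were treated. With quantile normalization 11 members were higher and 0 lower, and all 11 were those called before. With each array's median subtracted, 22 of the 31 members were higher and 0 lower, while the median change of all genes moved to 0.12 and 4088 genes were higher against 467 lower. All 4 peroxiredoxins, all 4 glutaredoxins and 6 of the 8 glutathione genes were among the 22. With the array median as a covariate in the limma fit, 0 members and 0 of the 12547 genes passed, and 550 genes had an unadjusted p under 0.05. Gpx1 then had a change of 0.47 (adjusted p = 0.919), Gpx4 of 0.43, Prdx1 of 0.32 and Prdx2 of 0.27, while Cat was at -0.03 and Gpx3 at -0.12. With the first principal component of the brain arrays as a covariate, 0 members passed, 913 genes had an unadjusted p under 0.05, and Gpx1 had a change of 0.09 (adjusted p = 0.828). The array median itself differed with treatment (6.08 to 6.33 in haloperidol brains, 6.27 to 6.40 in placebo brains). The component was taken from the same brain values, any drug difference included. Either covariate can thus take out part of a drug difference, so 0 calls do not separate it from an array-wide difference. With the mean of the red cell transcripts as a covariate, 0 members passed and 1287 genes had an unadjusted p under 0.05. The change of Gpx1 was then 0.81 (limma adjusted p = 0.483) and that of Glrx5 was 0.08 (limma adjusted p = 0.85). This mean did not overlap between the groups (6.35 to 7.37 in haloperidol brains, 5.57 to 6.31 in placebo brains). Such a fit can hardly separate the covariate from haloperidol, so its 0 calls do not tell where the changes come from. Markers of several cell types passed as well. Of 10 microglial transcripts tested 5 were higher and 0 lower, of 4 from oligodendrocytes 3 were higher and 0 lower, and of 5 from choroid plexus 2 were higher and 0 lower. Astrocyte and endothelial lists had 1 of 6 higher each and 0 lower, the neuronal list had 0 of 5 higher and 1 lower (Slc17a7, -0.20), and the red cell transcript Alas2, the only one of its list bright enough to test, was higher by 0.85 (SE 0.11, adjusted p = 0.00105). The part of the microglial, oligodendrocyte, choroid plexus, astrocyte, endothelial and neuronal lists in the changes of the members was not tested.

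**Figure D4:**
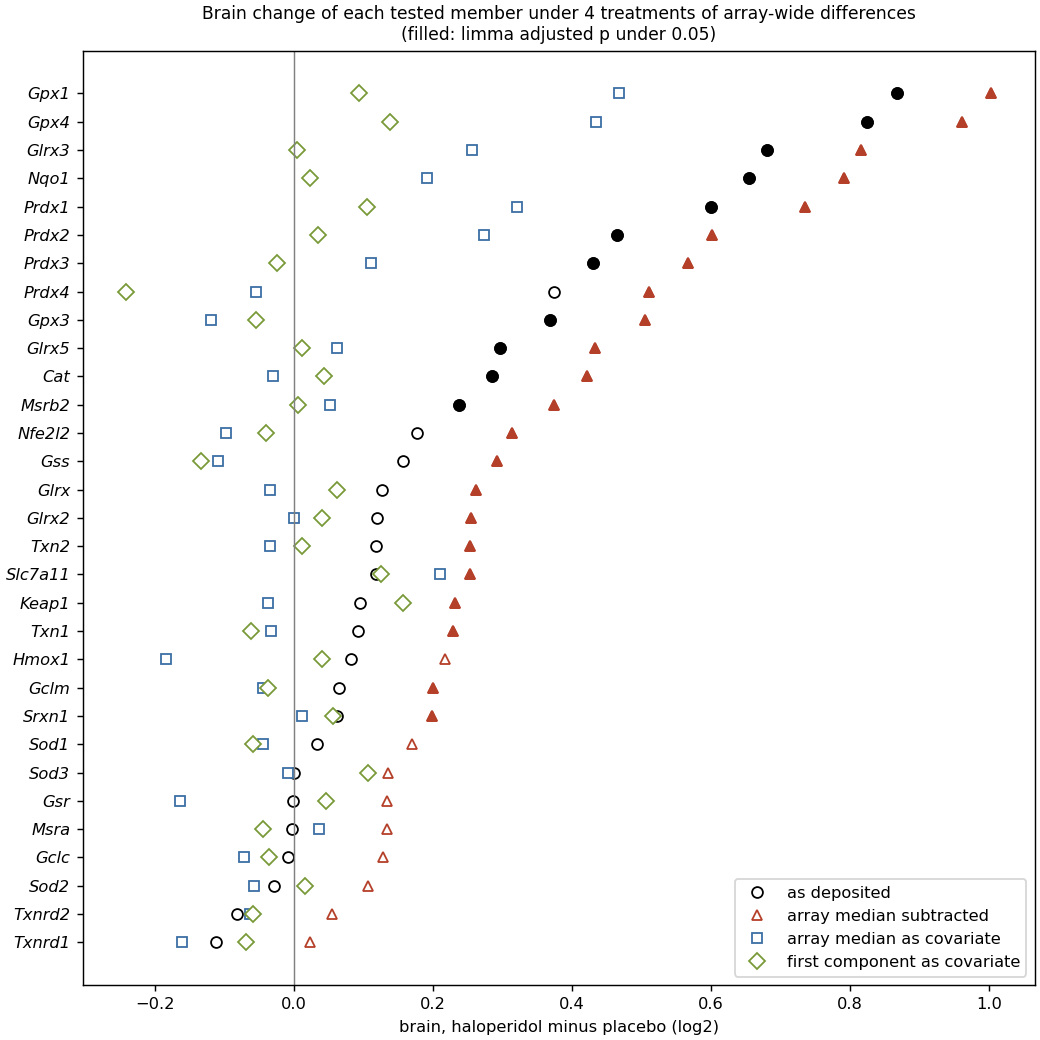
Brain change of each of the 31 tested members, haloperidol minus placebo on the log2 axis, under 4 treatments of array-wide differences, with filled symbols for limma adjusted p under 0.05. Circles are the deposited values with 11 filled, triangles have the array median subtracted with 22 filled, and squares and diamonds have the array median or the first principal component as a covariate with 0 filled.

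For 5 members a further probe carried the same symbol. Probes with neighbouring numbers on this array mostly name genes of the same chromosome. The 20 probes nearest in number to the Prdx1 probe used included 19 whose genes lie on chromosome 16, while Prdx1 lies on chromosome 4. For the Prdx2 probe used, all 20 lay on chromosome 1, while Prdx2 lies on chromosome 8. Which transcripts these probes read besides those named was not tested, so the Prdx1 and Prdx2 values above may not be of those genes alone. The other probes of these genes had neighbours on the gene's own chromosome, 20 of 20 each, and gave similar brain changes of 0.57 for Prdx1 (SE 0.14, limma adjusted p = 0.00693) and 0.54 for Prdx2 (SE 0.13, adjusted p = 0.00673). Both Gpx4 probes gave 0.82. For Sod1 and Txn1 the probe used had neighbours on the gene's own chromosome and did not pass. Their other probes, whose neighbours lay mainly on chromosome 6 for Sod1 and on chromosome 1 for Txn1, passed with changes of 0.22 (SE 0.076, adjusted p = 0.0315) and 0.19 (SE 0.055, adjusted p = 0.0127). With the other probe for each of the 5 members, 13 members were higher in brain.

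**Figure D5:**
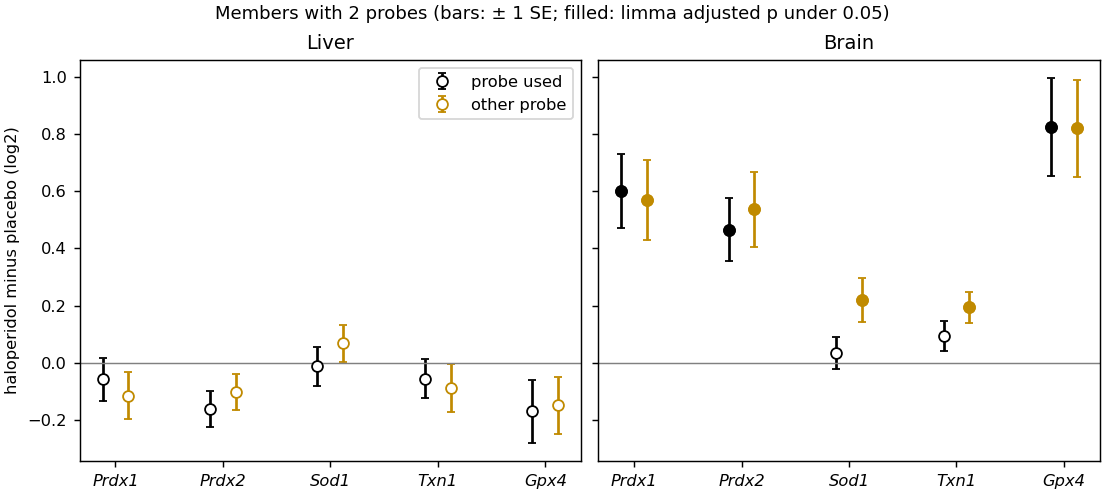
Changes of the 5 members with 2 probes in liver (left) and brain (right), haloperidol minus placebo on the log2 axis, with the probe used in black and the other probe in ochre. Bars are 1 SE and filled points passed limma's adjusted threshold of 0.05. The probes lie close together for Prdx1, Prdx2 and Gpx4, and in brain the other probe is higher and filled for Sod1 and Txn1.

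Other genes of the pathway were counted in brain in 4 lists, to be read against 15.2% of all genes higher and 15.2% lower. Of 17 further NRF2 targets tested, 7 were higher and 1 was lower, with a median change of 0.09. The carbonyl reductase Cbr1 had a change of 0.71 (SE 0.14), the glutathione transferases Gsta4 0.61 (SE 0.12), Mgst1 0.69 (SE 0.14) and Gstp1 0.36 (SE 0.085), with limma adjusted p from 0.00423 to 0.00569. The drug exporter Abcc1 was the one that fell (-0.26, SE 0.084, adjusted p = 0.0245). Of 7 enzymes that supply NADPH, 2 were higher and 0 lower: malic enzyme Me1 at 0.32 (SE 0.097, adjusted p = 0.017) and transaldolase Taldo1 at 0.32 (SE 0.10, adjusted p = 0.0205), while transketolase Tkt at 0.20 and isocitrate dehydrogenase Idh1 at 0.17 did not pass. Of 8 partners and repressors of NRF2, 1 was higher and 2 were lower. Rbx1, a RING subunit of the ligase that KEAP1 recruits, rose by 0.35 (SE 0.092, adjusted p = 0.00889), the repressor Bach2 changed by -0.37 (SE 0.11, adjusted p = 0.0147) and the small MAF gene Mafg by -0.23 (SE 0.077, adjusted p = 0.0272), while Mafk at 0.16 did not pass. Of 19 other redox genes, 6 were higher and 1 was lower, among them the selenoproteins Msrb1 at 0.55 (SE 0.10), Selenop at 0.56 (SE 0.14) and Selenow at 0.43 (SE 0.086), and the endoplasmic reticulum peroxidase Gpx8 at 0.40 (SE 0.10), with adjusted p from 0.00374 to 0.00795. These lists are described by their counts, and with the array median as a covariate 0 of all genes tested passed.

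In liver no member passed. Limma called 0 of 31 members and 0 of 12547 genes (0%), with adjusted p from 0.404 to 0.959 for the members, and an exact Wilcoxon rank sum test also called 0 members. At an unadjusted p under 0.05 there were 4 members (Prdx2, Prdx3, Txn2 and Glrx) and 1316 genes, or 10.5%. The groups overlapped for all 31 members, and they did not overlap for 0.00797% of the genes tested. Changes were negative for 25 of the 31 members and ranged from -0.27 for Glrx to 0.15 for Gclc, with a median of -0.08 against -0.02 over all genes tested. A fit of all 38 arrays together called 40 genes in liver, of which 0 were members. With each liver array's median subtracted the median of the members moved to -0.16 and that of all genes to -0.11, again with 0 members called.

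Among liver peroxiredoxins, Prdx2 ran from 10.36 to 10.70 with a median of 10.55 in haloperidol livers, against 10.58 to 10.89 with a median of 10.68 in placebo livers. 6 of 9 haloperidol arrays lay below the lowest placebo array, and none exceeded the placebo mean. The change was -0.16 (SE 0.062, limma adjusted p = 0.406). Prdx3 ran from 9.27 to 9.99 with a median of 9.58 in haloperidol livers, against 9.60 to 9.96 with a median of 9.76 in placebo livers. 5 haloperidol arrays were below all placebo arrays and 1 was above them, with a change of -0.22 (SE 0.09, adjusted p = 0.421). Prdx1 was at 11.31 to 11.83 with a median of 11.67 in haloperidol livers and at 11.47 to 11.83 with a median of 11.71 in placebo livers. Prdx4 was at 8.45 to 9.27 with a median of 9.09 in haloperidol livers and at 8.85 to 9.49 with a median of 9.12 in placebo livers. Both overlapped widely, with changes of -0.06 (SE 0.074) and -0.19 (SE 0.11).

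In the glutaredoxin and thioredoxin groups, Glrx ran from 7.35 to 8.14 with a median of 7.63 in haloperidol livers, against 7.71 to 8.21 with a median of 7.91 in placebo livers. 5 haloperidol arrays lay below the lowest placebo array, and the change of -0.27 (SE 0.10, limma adjusted p = 0.404) had the smallest p of any member in liver. Glrx5 ran from 10.05 to 10.48 with a median of 10.25 in haloperidol livers, against 10.10 to 10.71 with a median of 10.41 in placebo livers, a change of -0.14 (SE 0.087). Glrx3 ran from 6.43 to 6.98 with a median of 6.69 in haloperidol livers, inside the placebo range of 6.01 to 7.16 with a median of 6.70, and Glrx2 had a change of -0.07 (SE 0.089). Txn2 ran from 10.18 to 10.47 with a median of 10.41 in haloperidol livers, against 10.41 to 10.72 with a median of 10.47 in placebo livers. No haloperidol array exceeded the placebo mean of Txn2, and the change was -0.13 (SE 0.061, adjusted p = 0.461). Msrb2 ran from 6.77 to 7.44 with a median of 6.97 in haloperidol livers, against 6.90 to 7.50 with a median of 7.12 in placebo livers, a change of -0.15 (SE 0.096). The remaining thioredoxin members, Txn1, Txnrd1, Txnrd2 and Msra, had changes from -0.08 for Txnrd1 to -0.03 for Msra.

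Of the liver glutathione genes, Gpx4 ran from 10.18 to 10.77 with a median of 10.61 in haloperidol livers, against 10.06 to 10.98 with a median of 10.76 in placebo livers. The lowest Gpx4 array was a placebo array, 3L, and the change was -0.17 (SE 0.11, limma adjusted p = 0.571). Gpx1 ran from 11.34 to 11.89 with a median of 11.58 in haloperidol livers, against 11.50 to 11.79 with a median of 11.62 in placebo livers, a change of -0.07 (SE 0.08). Gsr ran from 9.49 to 9.87 with a median of 9.74 in haloperidol livers, against 9.63 to 10.11 with a median of 9.81 in placebo livers, a change of -0.11 (SE 0.075, adjusted p = 0.609). The groups of all 3 genes overlapped. Gclc had the highest change of any member in liver, at 0.15 (SE 0.14, adjusted p = 0.697), Gclm was at -0.04 (SE 0.098), Gss at -0.10 (SE 0.093), Gpx3 at 0.04 (SE 0.15) and Gpx7 at -0.14 (SE 0.14). Slc7a11 was below the limit of 3.92 for testing in liver, with medians of 2.15 in haloperidol livers and 2.30 in placebo livers.

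Among liver dismutases, Sod2 ran from 10.66 to 10.90 with a median of 10.83 in haloperidol livers, against 10.74 to 11.01 with a median of 10.88 in placebo livers, a change of -0.08 (SE 0.058, limma adjusted p = 0.628). Sod3 ran from 6.45 to 7.38 with a median of 6.86 in haloperidol livers, against 6.47 to 7.06 with a median of 6.84 in placebo livers, a change of 0.09 (SE 0.10). For Sod2, 3 haloperidol arrays lay below the lowest placebo array, and for Sod3 the groups shared most of their range. Sod1 was at -0.01 (SE 0.068). Cat, an abundant liver transcript, held to 12.46 to 12.66 in haloperidol livers and 12.46 to 12.62 in placebo livers, with a change of 0.02 (SE 0.051). In the NRF2 group, Srxn1 ran from 7.12 to 7.75 with a median of 7.52 in haloperidol livers, against 7.38 to 7.78 with a median of 7.58 in placebo livers, a change of -0.13 (SE 0.082). Nqo1 ran from 5.39 to 6.86 with a median of 5.92 in haloperidol livers, against 5.57 to 6.83 with a median of 6.20 in placebo livers. Its arrays were spread over more than 1 log2 unit in each group, and the change was -0.18 (SE 0.19, adjusted p = 0.746). Nfe2l2 was at 0.08 (SE 0.094), Keap1 at -0.04 (SE 0.067) and Hmox1 at -0.09 (SE 0.11).

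The other pathway lists had 0 genes called in liver. By smallest p, the further NRF2 targets were led by Ugdh at -0.20 (SE 0.083, limma adjusted p = 0.421), Cbr1 at -0.14, Gstp1 at -0.14 and Abcc4 at -0.18. The NADPH enzymes were led by Taldo1 at -0.23 (SE 0.063, adjusted p = 0.362), Tkt at -0.21, Pgd at -0.24 and Me1 at -0.32. Bach2 had a change of 0.45 (SE 0.13, adjusted p = 0.367), followed by Nfe2l1 at 0.13, Maff at 0.24 and Mafg at 0.14. Among other redox genes, Txnip, the thioredoxin inhibitor, had a change of 0.56 (SE 0.18, adjusted p = 0.374), Slc3a2 of -0.17, the metallothionein Mt1 of 0.64 (SE 0.30, adjusted p = 0.461) and Park7 of -0.11.

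The difference between tissues was tested as the liver change minus the brain change, in a fit of all 38 arrays over the 10869 genes kept in both tissues. Of 30 members, 12 had a lower change in liver and 0 a higher one, or 40.0%, against 13.9% of all genes lower and 9.16% higher (23% in either direction). The difference was -0.99 for Gpx4 (SE 0.21, limma adjusted p = 0.00216), from a change of -0.17 in liver and 0.82 in brain. It was -0.93 for Gpx1 (SE 0.21, adjusted p = 0.00325), from -0.07 in liver and 0.87 in brain, and -0.83 for Nqo1 (SE 0.26, adjusted p = 0.0177), from -0.18 in liver and 0.65 in brain. All 4 peroxiredoxins measured differed, with -0.66 for Prdx1 (SE 0.16, adjusted p = 0.00384), -0.63 for Prdx2 (SE 0.13, adjusted p = 0.00234), -0.65 for Prdx3 (SE 0.15, adjusted p = 0.00333) and -0.56 for Prdx4 (SE 0.21, adjusted p = 0.0454). So did 3 of 4 glutaredoxins, with -0.62 for Glrx3 (SE 0.23, adjusted p = 0.0482), -0.44 for Glrx5 (SE 0.13, adjusted p = 0.0124) and -0.39 for Glrx (SE 0.13, adjusted p = 0.0309). The cytosolic Glrx, in brain, ran from 8.13 to 8.55 with a median of 8.32 with haloperidol and from 7.79 to 8.53 with a median of 8.30 with placebo. In the thioredoxin system, Msrb2 differed by -0.38 (SE 0.12, adjusted p = 0.0231) and Txn2 by -0.25 (SE 0.08, adjusted p = 0.0221).

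Of the 11 members higher in brain, 9 also passed this test of the difference. The exceptions were Cat, at -0.27 (limma adjusted p = 0.0637), and Gpx3, at -0.33 (adjusted p = 0.265). The calls of Glrx3 and Prdx4 were the least stable, lost in 24 and 22 of the 38 fits that left out 1 array, and that of Glrx was lost in 5, with adjusted p of up to 0.0868, 0.0798 and 0.0546. Cat passed this test without haloperidol brain 1R or 2N or placebo brain 1T, with an adjusted p down to 0.0289. None of the dismutases, glutathione synthesis genes, Nfe2l2, Keap1, Hmox1 or Srxn1 passed. The main fit took all 38 arrays as independent, though brain and liver arrays share tags. With the tag as a random block, 10 members had a lower change in liver, as did 1433 of 10869 genes. With the difference taken per tag these counts were 9 and 1065. With array medians subtracted, 25 members had a lower change in liver, while the median over all genes moved to -0.23. Of the 10869 genes, 4073 were then lower and 272 higher. The covariates that left 0 members called in brain were not tried for this difference. Cell type markers were also lower by this test, 6 of 10 in the microglial list, 2 of 2 in the oligodendrocyte list, 1 of 6 in the endothelial list, 1 of 1 in the choroid plexus list and the red cell transcript Alas2 (-1.13), with 0 higher in these lists. The microglial list also holds transcripts of Kupffer cells, the macrophages of liver. Its mean level ran from 6.81 to 7.29 in haloperidol livers and from 6.97 to 7.53 in placebo livers. The part of these lists in the difference was not tested. Outside the 34 genes, Cbr1 (-0.86), Taldo1 (-0.56) and Selenow (-0.57) were lower by this test, and Bach2 (0.81) was higher.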

How the data were processed

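The authors deposited log2 values of 38 arrays. The submitters' processing notes name RMA and Affymetrix Expression Console. RMA scales arrays to each other, so changes in total RNA are not visible. Arrays lay within 0.208 of the mean brain distribution and 0.234 of the mean liver distribution, and the tissues' distributions differed by up to 1.42, so levels were compared within a tissue. The array model, genome build and filters used upstream are not stated here. The number of arrays limits the precision. Within a tissue the arrays came from different mice, per the design text. Whether brain and liver arrays with the same tag share a mouse is not stated.

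Of 35556 probes, 21218 carried 1 gene symbol in the platform annotation (possibly outdated), and 1881 carried several. Within each tissue the dimmest 33.3% of genes were left out (below 5.52 in brain, below 3.92 in liver). Tests used limma 3.58.1 in R 4.3.3 (lmFit, eBayes), two-sided, adjusted over all genes tested, with a threshold of 0.05. The fit was tested on simulated data. Alternatives covered the filter, normalization, covariates, blocks, variance model, probe choice, a Wilcoxon test and leaving out arrays. The other probe and the red cell covariate were added after seeing the data. Members and lists were chosen with earlier results of these data known. Array values are given for every member that passed and for at least the 2 members of smallest p per group and tissue, and up to 4 genes are named per other list. Promoter sequences are RefSeq's for GRCm38.p6.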

Additional observations from a re-analysis of the deposited data

Results flagged for a closer look

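In 128 sets of values (each member in each group), 9 arrays stood far from the others of their group, by the ratio of the gap to the range. Chance gives about 1 in 20 sets. In placebo brains these were 1L for Sod2 (10.99, the nearest other at 11.09), for Nfe2l2 (7.92, the nearest at 8.27) and for Nqo1 (5.39, the nearest at 6.00), and 1N for Txn2 (9.68, the nearest at 9.93). Placebo 1L is also the brain array with the highest growth hormone transcript. In haloperidol brains they were 4N for Txn2 (10.33, the nearest at 10.14), 4T for Txnrd1 (8.51, the nearest at 8.29) and 2L for Hmox1 (5.80, the nearest at 6.19). In placebo livers they were 4B for Sod1 (12, the nearest at 12.23) and 3L for Gpx4 (10.06, the nearest at 10.67). Haloperidol livers had 0.

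The changes in the tissues differed by limma's test for 12 members, as liver minus brain: Gpx4 by -0.99, Gpx1 by -0.93, Nqo1 by -0.83, Prdx1 by -0.66, Prdx3 by -0.65, Prdx2 by -0.63, Glrx3 by -0.62, Prdx4 by -0.56, Glrx5 by -0.44, Glrx by -0.39, Msrb2 by -0.38 and Txn2 by -0.25.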

How the results depend on the processing

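Over the alternatives other than leaving out each array in turn (haloperidol brain 4T alone is left out in 1 of them), 487 of 552 brain results, 433 of 433 liver results and 243 of 264 results on the difference kept their direction where called and their side of the threshold. Of the rest in brain, 41 lost the call with the sign unchanged, 20 gained it, and 4 lost it with a change of sign. For the difference 7 lost it and 14 gained it. The number of brain members higher was 22 with the array median subtracted, and 0 with the array median, the first principal component or the red cell transcripts as a covariate. The changes of sign were in Cat (-0.029) and Gpx3 (-0.12) with the array median as a covariate and in Gpx3 (-0.055) and Prdx3 (-0.024) with the first component. None of these passed in the new direction. The cause was not tested, and these fits may also take out part of a drug difference. The difference between tissues called 25 members as lower with the array median subtracted, where 4073 of 10869 genes were also lower. No covariate was tried for it. Leaving out each array in turn gave 9 to 14 members called in brain, 0 to 0 in liver and 9 to 13 for the difference. Arrays of brain and liver share 18 tags. The replicate block by tag left 10 members called with a random block and 9 with the difference taken per tag. Deviations of arrays with the same tag correlated from -0.318 to 0.249, above 0.1 in 5 of 18. Such correlations between unlike tissues cannot tell whether a tag marks a mouse. The shared tags carried the same treatment in both tissues, and the main fit took all arrays as independent. Array numbers of 9 or 10 a group limit small changes.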

Other observations

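Placebo brains also differed among themselves for the 11 members higher with haloperidol. Among placebo brains, 4R was among the 4 highest arrays for 10 of the 11 members, 4B for 9, 3T for 7 and 3N for 6, and 1N for 0. Their median difference from the placebo mean was 0.27 in 4R and 0.16 in 4B, against -0.26 in 1L and -0.19 in 1N.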
